A study of Mus musculus with 2 samples.

Results

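Conventional dendritic cells of the inflamed mouse colon numbered 84 among 17858 kept cell barcodes, 14 of 9734 in the Elf-1 KO library and 70 of 8124 in the WT library. A barcode was a member when at least 3 of 8 dendritic genes (Kmo, Plbd1, Naaa, Flt3, Clec9a, Xcr1, Zbtb46 and Cd209a) were detected and H2-Aa, H2-Eb1 and Cd74 together had at least 5 unique molecular identifiers (UMIs, each standing for 1 captured RNA molecule). Barcodes with 3 or more of the 7 genes Tbc1d4, Serpinb6b, Il4i1, Cacnb3, Fscn1, Ccl22 and Ccr7, which mark dendritic cells that have matured for migration, were left out, as were barcodes with more than 1 C1q UMI or any UMI of Cd79a or Cd3e. The members were thus chosen by the counts of these genes, which are given only as a description.

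The study set C57BL/6 mice labelled Elf-1 KO against WT mice of the same strain, all aged 8 to 10 weeks and all given dextran sulfate sodium (DSS), a detergent-like polysaccharide in drinking water that injures the colonic lining and causes colitis. Each genotype was 1 single-cell library of cells pooled from the proximal and distal colon and rectum of 3 mice, with no map from cells to mice. With 1 library per group, every difference below compares 2 libraries, carries no p-value, and has intervals at 95% that cover counting error only. The labels name neither the deleted part of Elf1 nor the dose and duration of DSS.

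Conventional dendritic cells take up antigen in the intestinal wall and present it on MHC class II to T cells. They depend on the growth factor receptor Flt3 and fall into a pair of lineages. The cDC1 lineage needs the transcription factors Irf8 and Batf3, carries Xcr1 and Clec9a, and is known for presenting material of dying cells to CD8 T cells. The cDC2 lineage is more diverse, includes cells with Cd209a, Clec10a and Mgl2, and is known for priming CD4 T cells. After maturation both switch on Ccr7, which guides them to the draining lymph node. Elf1 is a transcription factor of the ETS family, known from work on lymphocytes and other blood cells.

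Members were deep compared with their libraries. They had a median of 4131.5 UMIs in the Elf-1 KO library (range 2890 to 15395) and 4335.5 UMIs in the WT library (724 to 21430), against medians of 2679 and 2041 UMIs over all kept barcodes. Together they held 69135 UMIs in the Elf-1 KO library and 319668 in the WT library, so every Elf-1 KO value below is the less precise. The libraries shared 57 barcode sequences, and 0 of the members were among them. The doublet caller's marks covered 1 Elf-1 KO and 5 WT members.

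The Elf-1 KO members met the rule with fewer genes. The genes counted here chose the members, so their counts describe the members and cannot check the label. Of the 8 dendritic genes, 10 Elf-1 KO members had 3, 3 had 4 and 1 had 5. In the WT library 35 members had 3, 17 had 4, 11 had 5, 6 had 6 and 1 had 7. Just outside the rule, 32 Elf-1 KO and 95 WT barcodes met every other condition with 2 of the 8 genes. Of the other limits, MHC class II kept out 24 Elf-1 KO and 5 WT barcodes, C1q 1 and 6, the migration genes 0 and 4, and Cd79a or Cd3e 2 and 9. The lowest member had 47 MHC class II UMIs in the Elf-1 KO library and 7 in the WT library.

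Flt3 was detected in 11 of 14 Elf-1 KO and 37 of 70 WT members, with 18 and 54 UMIs. Plbd1, a lysosomal hydrolase gene, had 59 UMIs in 14 Elf-1 KO members and 454 UMIs in 68 WT members. Kmo, an enzyme of tryptophan breakdown, had 16 UMIs in 8 Elf-1 KO and 71 UMIs in 39 WT members. These 3 rule genes were spread widely over the members of both libraries, which the rule partly set. The lineage-restricted rule genes were sparse in the Elf-1 KO library. Xcr1, the chemokine receptor of cDC1, is not listed in the Elf-1 KO file and had 43 UMIs in 19 WT members. Clec9a, a receptor for exposed actin of dead cells, had 3 UMIs in 3 Elf-1 KO members and 15 UMIs in 11 WT members. Cd209a, a C-type lectin of cDC2, had 4 UMIs in 2 Elf-1 KO members and 190 UMIs in 27 WT members.

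T cells served as a measure of free RNA, since they should lack these genes. Over 475 Elf-1 KO and 573 WT T cell barcodes, with medians of 2062 and 1932 UMIs, the 8 dendritic genes summed to 26 counts per 1000000 UMIs (CPM) in the Elf-1 KO library and 21 CPM in the WT library, against 1663 and 3741 CPM in members. No T cell barcode of either library had more than 2 of the 8 genes. The level in T cells was far under that of the members in both libraries. The rule chose the members by these same genes, so this gap was set in advance by the rule, at least in part. T cell barcodes were also less deep than members, which had medians of 4131.5 UMIs (Elf-1 KO) and 4335.5 UMIs (WT). This makes more than 2 of the 8 genes harder to reach in T cells. The values thus describe the level in T cells and do not check the members.

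A few members carried transcripts of another cell type, and they weighed more in the Elf-1 KO library. With at least 20 UMIs of another lineage's list, or of the enteroendocrine genes Chga, Chgb and Tph1 together, 3 Elf-1 KO and 4 WT members were mixed and held 33.6% and 11.6% of member UMIs. All 7 had only 3 of the 8 dendritic genes. The deepest Elf-1 KO member had 15395 UMIs, of which 1664 came from Chga, Chgb and Tph1, and alone made up 22.3% of the Elf-1 KO sum. The other mixed Elf-1 KO members had 37 erythroid and 73 fibroblast UMIs, while the mixed WT members had 547 epithelial, 474 erythroid, 89 fibroblast and 240 neutrophil UMIs. Values without mixed members, 11 Elf-1 KO and 66 WT barcodes, are given for many of the results below, but not for all.

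Markers of T cells, B cells and macrophages were low, and those of monocytes were not. The rule bars Cd3e, Cd79a and more than 1 C1q UMI, so the low T cell, B cell and macrophage levels were partly set by it. The T cell list of 12 genes had 0 UMIs in Elf-1 KO members and 8 in WT members, the B cell list of 13 genes 5 and 46. In Elf-1 KO and WT members the plasma cell list summed to 2633 and 3826 CPM and the epithelial list to 1475 and 2193 CPM. The erythroid list summed to 810 and 1796 CPM. Single mixed barcodes held 102 of 102 Elf-1 KO and 547 of 701 WT epithelial UMIs, and 474 of 574 WT erythroid UMIs. The macrophage list of 16 genes summed to 694 CPM in Elf-1 KO members and 716 CPM in WT members, with Cd163, Trem2, Ms4a7, Folr2 and C3ar1 at 0 in both. The monocyte list of 13 genes summed to 4527 CPM in Elf-1 KO and 3920 CPM in WT members, against 5872 and 3557 CPM in all other barcodes, and to 2834 and 4089 CPM without mixed members. Siglech, the defining gene of plasmacytoid dendritic cells, was at 0 in both. The whole plasmacytoid list of 12 genes had 13 UMIs in Elf-1 KO members (188 CPM) and 134 in WT members (419 CPM). In all other barcodes it summed to 498 and 1901 CPM. Fibroblast and neutrophil transcripts were higher in Elf-1 KO members, at a median of 6.5 fibroblast UMIs per member (4 to 73, above 0 in 14 of 14) against 2 in WT members (0 to 89, above 0 in 61 of 70). The neutrophil list had a median of 4 UMIs per Elf-1 KO member (1 to 45, above 0 in 14 of 14) and 0 per WT member (0 to 240, above 0 in 26 of 70). T cell barcodes showed the same step, at medians of 5 fibroblast and 3 neutrophil UMIs in the Elf-1 KO library and 1 and 0 in the WT library.

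Conventional dendritic cells were rarer in the Elf-1 KO library. They made up 0.144% of kept barcodes there (exact Clopper-Pearson interval 0.079 to 0.241) and 0.862% in the WT library (0.672 to 1.087), a ratio of 0.167 (0.087 to 0.299) or 5.99-fold lower. Without mixed members the shares were 0.113% and 0.812%, a ratio of 0.139. Among barcodes with a UMI of Ptprc, the gene of the pan-leukocyte antigen CD45, the members made up 12 of 3387 in the Elf-1 KO library (0.354%) and 65 of 3903 in the WT library (1.67%), a ratio of 0.213 (0.105 to 0.397). The gap was therefore present among leukocyte barcodes too. A difference between libraries in tissue dissociation or in the composition of the pooled suspension cannot be told apart from a difference between the mice.

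Of the kinds of cell nearest to them, migratory dendritic cells were more frequent in the Elf-1 KO library, C1q macrophages about as frequent and restricted monocytes rarer. Migratory dendritic barcodes, those with at least 3 of the 7 migration genes, made up 1.16% of the Elf-1 KO library (113 barcodes) and 0.566% of the WT library (46 barcodes), a ratio of 2.05 (1.44 to 2.96). Conventional barcodes were thus 14 of 127 conventional and migratory dendritic barcodes in the Elf-1 KO library and 70 of 116 in the WT library. C1q macrophages made up 2.74% and 2.70%, a ratio of 1.02 (0.848 to 1.22). Monocytes with a Ptprc UMI and under 20 UMIs of any other lineage list made up 0.976% of the Elf-1 KO library (95 barcodes) and 2.28% of the WT library (185 barcodes), a ratio of 0.429 (0.331 to 0.552). A wider monocyte class without those limits ran the other way, at 27.9% and 14.9%, and its barcodes had medians of 188 and 128 fibroblast UMIs.

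**Figure D1:**
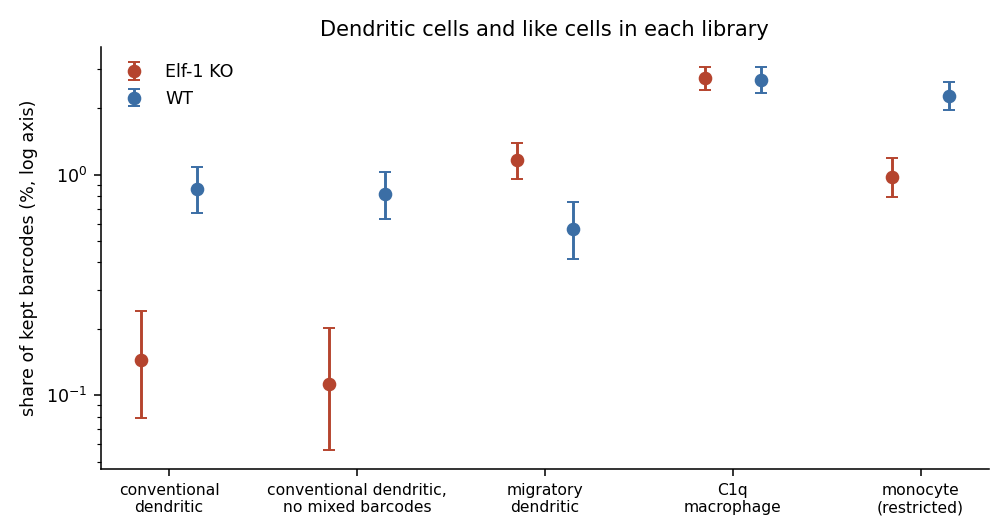
Share of kept barcodes (percent, log axis) in the Elf-1 KO and WT libraries for conventional dendritic cells, the same without mixed barcodes, migratory dendritic cells, C1q macrophages and restricted monocytes; points are shares of 1 library each and bars exact 95% intervals of counting error. Conventional dendritic cells lie at 0.144% in the Elf-1 KO library and 0.862% in the WT library, while migratory dendritic cells lie at 1.16% and 0.566%.

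The Elf1 gene (ENSMUSG00000036461, chr14:79481194-79582494, plus strand, GRCm38) was detected in members of both libraries. It had 17 UMIs in 11 of 14 Elf-1 KO members, or 246 CPM, and 55 UMIs in 32 of 70 WT members, or 172 CPM. The ratio was 1.43 with an interval of 0.778 to 2.50, which spans no difference. In all other kept barcodes Elf1 stood at 181 CPM in the Elf-1 KO library and 191 CPM in the WT library. Counts per gene do not show which exons were read, so without knowing the deleted part these levels check neither the label nor the loss of the protein.

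Members differed from other cells by genes that the rule did not use, although genes of one cell are not independent of the rule. Past 2-fold higher in members than in all other barcodes lay 32.4% of 518 genes in the Elf-1 KO library and 21.6% of 2461 genes in the WT library, counting genes with at least 20 member UMIs. Genes entered by their level in members, which favours high ratios, so these shares are a description only. The same minimum asks for a higher level in the smaller Elf-1 KO sum, so the shares of the libraries are not comparable. Cst3, the cysteine protease inhibitor cystatin C that dendritic cells make in large amounts, had the highest mean log2 ratio over both libraries, at 12.5-fold in Elf-1 KO members and 20.4-fold in WT members. Gm2a, a lysosomal glycolipid-binding protein, was 13.3-fold and 12.1-fold higher. The class II genes H2-Ab1 and H2-DMa were 16.8-fold and 17.5-fold higher in Elf-1 KO members and 6.84-fold and 5.27-fold in WT members. Ifi205, an interferon-inducible gene high in cDC1, was 5.95-fold and 28.1-fold higher. Syngr2 (8.11-fold and 4.75-fold), Atox1 (5.12-fold and 6.37-fold) and Id2, a helix-loop-helix regulator needed for cDC1 (5.38-fold and 4.74-fold), were higher in members of both libraries.

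Set beside the nearest cells, members had more Ifi205 and Cst3 and little of the macrophage gene Apoe. Cst3 stood at 7015 CPM in Elf-1 KO and 9904 CPM in WT members, at 5568 and 3490 CPM in migratory dendritic cells and at most at 1572 CPM in C1q macrophages and restricted monocytes. Kmo, a rule gene whose excess in members the rule set, stood at 231 and 222 CPM in members and at 11 and 32 CPM in migratory dendritic cells. Ifi205 stood at 738 and 707 CPM in members and at most at 118 CPM in migratory dendritic cells, C1q macrophages and restricted monocytes of either library. Apoe, a lipid carrier abundant in macrophages, stood at 217 and 128 CPM in members and at 24655 and 25479 CPM in C1q macrophages. Lyz2, the lysozyme gene of myeloid cells, stood at 1273 and 663 CPM in members, with 87 of the 88 Elf-1 KO UMIs in 1 mixed barcode, and at 4481 and 11388 CPM in C1q macrophages. Ccr7 stood at 304 CPM in Elf-1 KO and 31 CPM in WT members, against 2760 and 1112 CPM in migratory dendritic cells. The rule limits the migration genes in members, so the gap in Ccr7 between members and migratory cells was partly set by it.

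**Figure D2:**
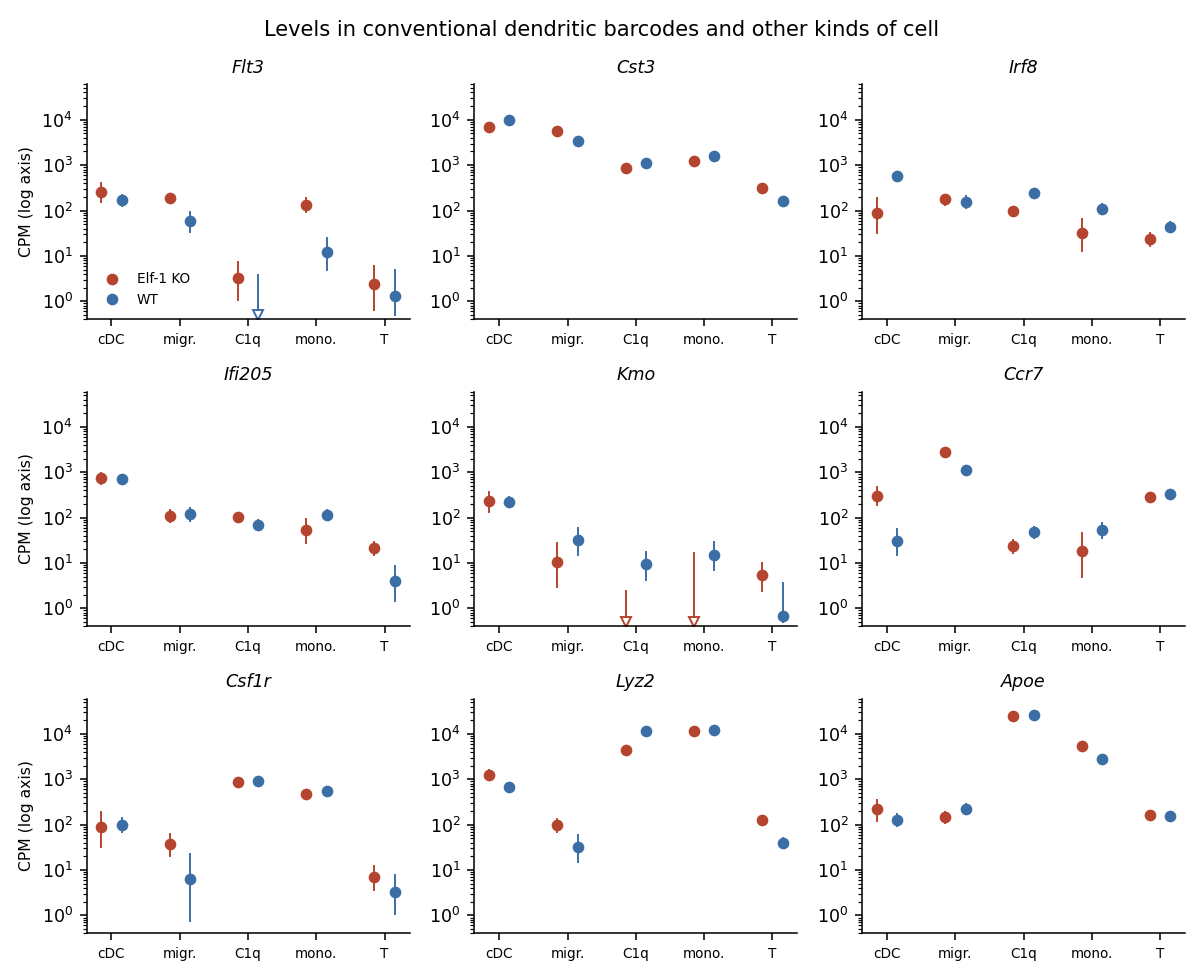
Summed CPM (log axis) of 9 genes in conventional dendritic cells (cDC), migratory dendritic cells (migr.), C1q macrophages (C1q), restricted monocytes (mono.) and T cells (T) of the Elf-1 KO and WT libraries; points are 1 library each, bars exact 95% intervals of counting error and open triangles a sum of 0. Ifi205 is highest in conventional dendritic cells of both libraries, as is Kmo, which with Flt3 was used to choose them, Ccr7 in migratory dendritic cells and Apoe in C1q macrophages.

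Most WT members held either Xcr1 or Clec9a, genes of cDC1, or Cd209a, while most Elf-1 KO members showed none of these defining genes. Xcr1 is not listed in the Elf-1 KO file, so Elf-1 KO members could show the cDC1 genes only by Clec9a. The shares below thus do not rest on the same genes in both libraries. A UMI of Xcr1 or Clec9a without Cd209a was found in 2 of 14 Elf-1 KO members (14.3%, interval 1.78 to 42.8) and 23 of 70 WT members (32.9%, 22.1 to 45.1). Cd209a without the other pair was found in 1 Elf-1 KO member (7.14%, 0.181 to 33.9) and 27 WT members (38.6%, 27.2 to 51.0). A single Elf-1 KO member had both kinds of transcript and 10 had neither (71.4%, 41.9 to 91.6), against 0 and 20 WT members (28.6%, 18.4 to 40.6). Without mixed members 7 of 11 Elf-1 KO and 16 of 66 WT members had neither. The ratio of these shares was 2.625 with an interval of 0.913 to 6.74, which spans no difference. The ratio of the Xcr1 or Clec9a shares, Elf-1 KO over WT, was 0.435 with an interval of 0.050 to 1.76, so a difference was not detectable at this number of members.

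Genes that the rule did not use gave a closer balance. A list of 16 cDC1 genes without the rule genes had more UMIs than a list of 18 cDC2 genes in 6 of 14 Elf-1 KO members (42.9%, 17.7 to 71.1) and 33 of 70 WT members (47.1%, 35.1 to 59.4). In the WT library it did so in 23 of 23 barcodes with Xcr1 or Clec9a, in 2 of 27 barcodes with Cd209a and in 8 of 20 with neither. Per WT barcode the cDC1 list had a median of 39 UMIs with Xcr1 or Clec9a (10 to 71), 2 with Cd209a (0 to 12) and 7 with neither (1 to 66). The cDC2 list had medians of 2 (0 to 12), 19 (3 to 37) and 9 (1 to 45). The barcodes with neither defining gene ranged from the levels of one kind to those of the other. Over all members the cDC1 list had a median of 12 UMIs per Elf-1 KO member (0 to 43) and 9 per WT member (0 to 71), and the cDC2 list 13 (1 to 51) and 6.5 (0 to 45). In summed CPM the cDC2 list stood about as high in all other barcodes as in members, so the balance of the lists between the libraries is a description.

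**Figure D3:**
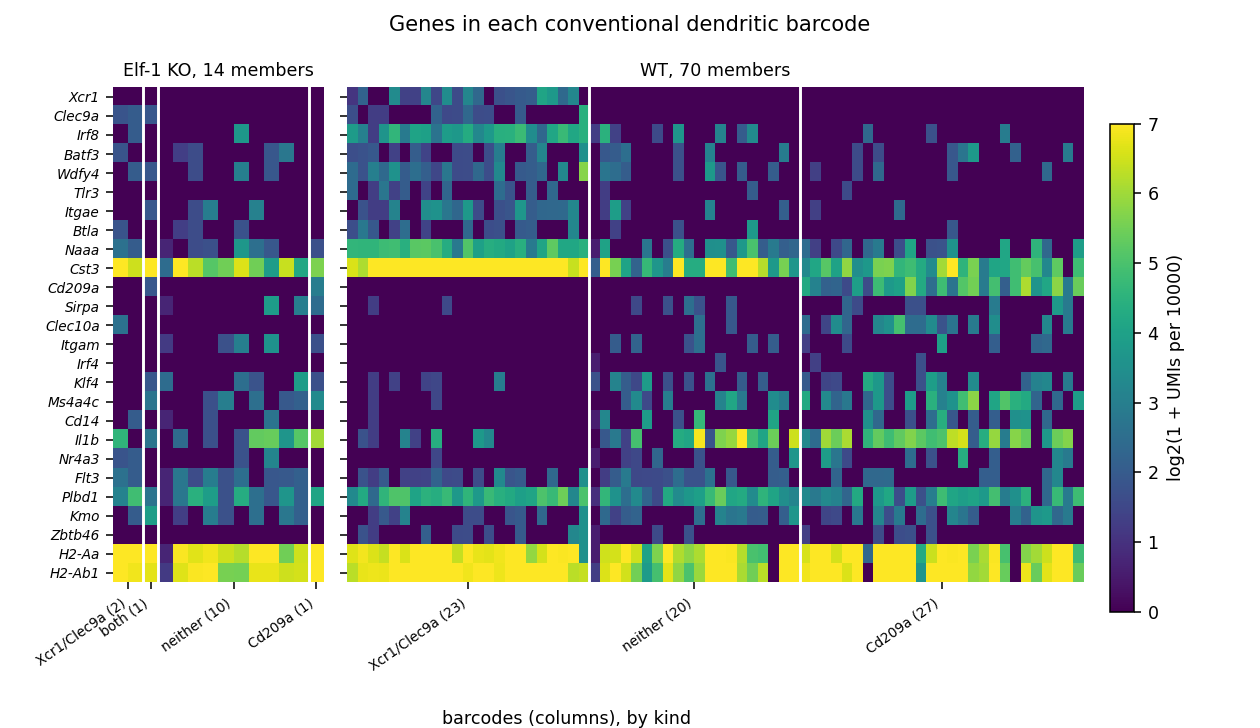
UMIs per 10000 on a log2(1 + value) scale (colour) for 26 genes in every conventional dendritic barcode, with the 14 Elf-1 KO members left and the 70 WT members right, ordered by kind (white lines). The 23 WT barcodes with Xcr1 or Clec9a all hold Irf8, many of the 27 with Cd209a hold Ms4a4c, Il1b and Clec10a, and the Elf-1 KO members hold Irf8 in 2 barcodes and Tlr3 in 0.

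Within the WT library the kinds differed in genes of each lineage, beyond the genes that defined them. Over 1617 genes with at least 20 UMIs, 211 (13%) were past 2-fold higher in the Xcr1 or Clec9a barcodes and 232 (14.3%) past 2-fold lower, taken over the Cd209a barcodes, with a median log2 ratio of 0.05. Of the cDC1 list, 10 of 11 measured genes were past 2-fold higher, and of the cDC2 list 8 of 8 were past 2-fold lower, at median log2 ratios of 3.70 and -3.43. Irf4 and Sirpa, also on the cDC2 list, were not among the measured genes. A gene could reach the UMI minimum through the kind in which it is high, as Tlr3 did. Genes of one cell are also not independent of those that defined its kind, so these counts are a description. Irf8, the factor on which cDC1 depend, had 144 UMIs in all 23 Xcr1 or Clec9a barcodes and 5 UMIs in 3 of 27 Cd209a barcodes, 27.4-fold higher (11.5 to 85.8). Ppt1, a lysosomal thioesterase, had 161 and 10 UMIs (15.3-fold, 8.13 to 32.6), and Itgae, the CD103 integrin of intestinal dendritic cells, 44 and 3 UMIs. Tlr3, a sensor of double-stranded RNA, had 20 and 1 UMIs (19.0-fold), and Wdfy4, needed for cross-presentation, 51 and 6 UMIs (8.10-fold). Cst3 had 2160 UMIs in the Xcr1 or Clec9a barcodes and 344 in the Cd209a barcodes, 5.98-fold higher.

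Inflammatory and monocyte-linked transcripts were higher in the Cd209a barcodes than in the Xcr1 or Clec9a barcodes. Il1b, the gene of the cytokine interleukin 1 beta, had 30 UMIs in the Xcr1 or Clec9a barcodes and 361 in the Cd209a barcodes, 12.6-fold lower (8.70 to 19.0). Ms4a4c had 2 and 109 UMIs (57.2-fold lower, 15.5 to 478), Tnfsf9, a costimulatory ligand, 3 and 102 UMIs (35.7-fold lower), and the chemokine gene Ccl3 9 and 160 UMIs (18.7-fold lower). The lectin genes Mgl2 and Clec10a had 0 UMIs in the Xcr1 or Clec9a barcodes and 64 and 53 in the Cd209a barcodes. Csf1r, the macrophage growth factor receptor, had 0 and 23 UMIs, and the monocyte list was past 2-fold lower in 5 of 6 measured genes. Whether the Cd209a barcodes were cDC2 or cells derived from monocytes was not tested. NF-kB genes were past 2-fold lower in 8 of 9 (Nfkbia 86 and 390 UMIs), chemokines in 7 of 9, cytokines in 3 of 3 and chemokine receptors in 5 of 6. Over all measured genes 14.3% were past 2-fold lower. Genes of these lists and of the monocyte list could reach the UMI minimum through the Cd209a barcodes, so the counts are a description. A few barcodes decided some genes named by the same rule, such as Rgcc with 28 of its 29 Cd209a-barcode UMIs in 1 barcode. Some of these transcripts were as high in unmixed WT barcodes with neither defining gene. Cd14 stood at 285 CPM there and 266 CPM in Cd209a barcodes, and Osm at 270 and 247 CPM. Ms4a4c and Tnfsf9 were lower there, at 374 and 329 CPM against 1035 and 968 CPM in Cd209a barcodes.

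Antigen presentation did not follow this split. H2-Ab1 had 1462 UMIs in the Xcr1 or Clec9a barcodes and 1413 in the Cd209a barcodes, and H2-Aa, a rule gene, 1316 and 1202 (ratio 1.04, 0.96 to 1.13). Of 10 measured class II genes 0 were past 2-fold higher and 2 lower, and of 14 class I genes 2 were higher. In the Elf-1 KO library the same kinds were 2 barcodes and 1 barcode and give values only, with Irf8 at 1 and 0 UMIs, Il1b at 9 and 28 and Mgl2 at 0 and 26.

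**Figure D4:**
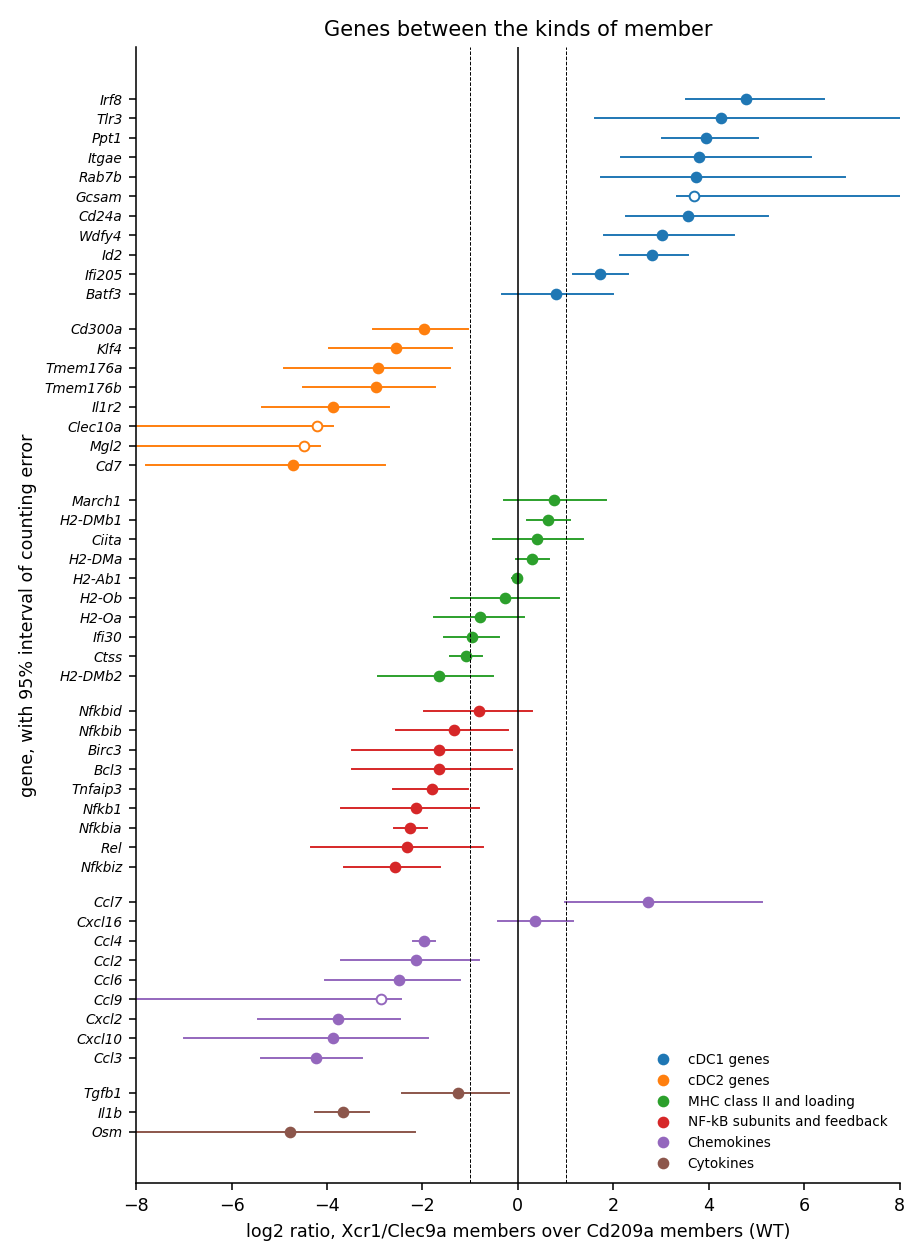
Log2 ratio of summed CPM, Xcr1 or Clec9a barcodes over Cd209a barcodes, in the WT library for measured genes of 6 lists (colour); bars are 95% intervals of counting error, open points have a count of 0 taken as 3, and dashed lines mark 2-fold. The cDC1 genes lie to the right, at a median of 3.70, the cDC2, NF-kB and most chemokine genes to the left, and the MHC class II genes around 0.

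Between the libraries, 63 of 1159 genes with at least 50 member UMIs (5.44%) were past 2-fold higher in Elf-1 KO than in WT members and 137 (11.8%) past 2-fold lower, 200 in either direction (17.3%). With TMM factors the split was 40 higher and 215 lower, and with median-of-ratios factors 45 higher and 189 lower, since those scalings shift every log2 ratio by -0.28 and -0.21 from a median of -0.14. In all other barcodes, 42 of the 63 higher and 105 of the 137 lower genes lay on the same side of 1. More than 50% of the Elf-1 KO UMIs came from 1 barcode in 16 of the 63 higher genes. WT members hold more UMIs and so weigh more in the minimum of 50 UMIs, and counts within lists are descriptions. Without mixed members 950 genes were measured, of which 50 (5.26%) were past 2-fold higher and 124 (13.1%) past 2-fold lower. For a single gene, fewer members that express it and less of its RNA per member cannot be told apart in these sums.

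**Figure D5:**
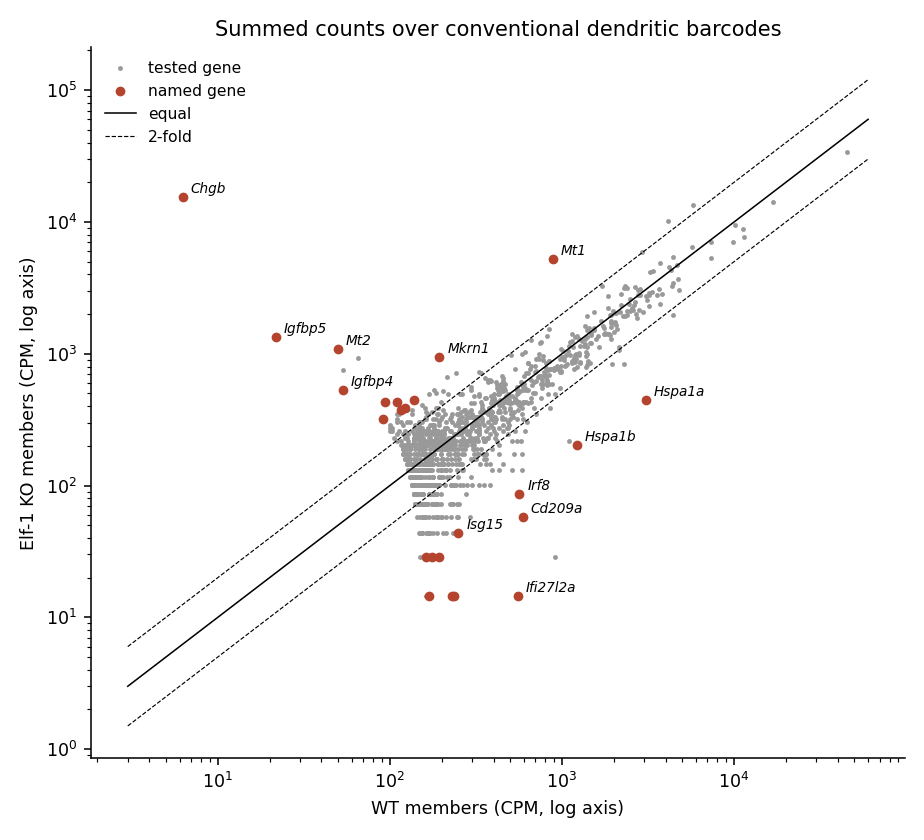
Summed CPM of 1159 genes in the 14 Elf-1 KO members (y, log axis) and the 70 WT members (x, log axis); each point is a gene, red points are the genes named by the rule, the solid line is equality and dashed lines are 2-fold. Hspa1a, Hspa1b, Irf8, Cd209a, Isg15 and Ifi27l2a lie below the lines, while Mt1, Mt2 and Mkrn1 lie above them, as do Chgb, Igfbp4 and Igfbp5, which 1 mixed barcode holds.

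Among lineage genes, Irf8, Wdfy4 and Ppt1 of cDC1 and Clec10a of cDC2 were lower in the Elf-1 KO members. Irf8 (chr8:120736358-120756694, plus strand) had 6 UMIs in 2 of 14 Elf-1 KO members, 86.8 CPM, and 181 UMIs in 34 of 70 WT members, 566 CPM. It was 6.52-fold lower (2.94 to 18.0), and 28.7-fold lower without mixed members, where 1 and 177 UMIs remained. In all other barcodes Irf8 was 2.42-fold lower in the Elf-1 KO library. In T cells, a measure of the background, it was found in 6.11% of Elf-1 KO and 7.16% of WT barcodes. Among unmixed members with neither Xcr1 or Clec9a nor Cd209a, it had 0 UMIs in 7 Elf-1 KO barcodes, which allows up to 97.5 CPM at 3 UMIs, and 28 UMIs or 419 CPM in 16 WT barcodes, 15 of them in 1 barcode.

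Of the cDC1 list, 0 of 8 measured genes were past 2-fold higher and 3 lower (Irf8, Wdfy4 and Ppt1), at a median log2 ratio of -0.71. Elf-1 KO members hold 202 UMIs of this list and WT members 1279. Its measured genes thus met the UMI minimum mainly through the WT members, which favours lower ratios, so these counts are a description. Ppt1 had 9 and 187 UMIs and Wdfy4 7 and 75 UMIs in Elf-1 KO and WT members. The summed ratio of the whole cDC1 list was 0.730 (0.626 to 0.848). Id2 and Ifi205 of the same list lay inside 2-fold. Of the cDC2 list 0 of 8 were past 2-fold higher and 1 lower, at a median of 0.73 and a summed ratio of 1.42 (1.22 to 1.64). The exception was Clec10a, with 2 UMIs in 1 Elf-1 KO member and 56 UMIs in 18 WT members (6.06-fold lower, 1.60 to 51.2), although Clec10a was 2.55-fold higher in all other Elf-1 KO barcodes. The cDC2 list summed to 3356 CPM in Elf-1 KO and 2368 CPM in WT members. It summed to 3221 and 2826 CPM in all other barcodes and to 2041 and 2334 CPM in T cells. Its sum alone thus sets members little apart from other cells, and the summed ratio is a description. Slamf7, a lymphoid and myeloid surface receptor, had 1 and 54 UMIs and Apbb1ip, an integrin-activating adaptor, 2 and 52 UMIs. Without mixed members the ratio of Apbb1ip was 0.268 (0.0315 to 1.02), an interval that spans no difference.

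Interferon-response transcripts were lower in the Elf-1 KO members. Of a list of 28 type I interferon response genes 3 reached 50 UMIs, Isg15, Bst2 and Ifi27l2a. They did so mainly through the WT members, which hold 80 of 83 UMIs of Isg15, 89 of 95 of Bst2 and 178 of 179 of Ifi27l2a, so that their lower ratios are a description and no count is drawn from them. The whole list summed to 59 UMIs in Elf-1 KO and 734 in WT members, a ratio of 0.372 (0.280 to 0.485) and 0.428 without mixed members. At 853 CPM in Elf-1 KO and 2296 CPM in WT members, the list stood close to all other barcodes of each library, 868 and 2422 CPM. Ifi27l2a, an interferon-inducible gene, had 1 UMI in 1 of 14 Elf-1 KO members and 178 UMIs in 43 of 70 WT members, 38.5-fold lower (6.82 to 1529). Isg15, a ubiquitin-like modifier, had 3 UMIs in 1 Elf-1 KO member and 80 UMIs in 25 WT members, 5.77-fold lower (1.90 to 28.6). Phf11b, an interferon-inducible gene outside the list, had 1 UMI in 1 Elf-1 KO member and 73 UMIs in 28 WT members. A list of 17 interferon-gamma-induced GTPases and related genes had no gene with 50 UMIs and summed to 10 and 200 UMIs, a ratio of 0.231 (0.109 to 0.434). The other barcodes differed in the same direction, with Ifi27l2a 2.59-fold, Isg15 2.91-fold and Phf11b 2.63-fold lower in the Elf-1 KO library.

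The promoters of Isg15, Bst2 and Phf11b are shown because each holds the core of the interferon-stimulated response element, TTTC followed by any 2 bases and a further TTTC, within 150 bases before its start. The sequences are from RefSeq on GRCm38.p6, at chr4:156200819-156200968 for Isg15, chr8:71537473-71537622 for Bst2 and chr14:59341331-59341480 for Phf11b, all on the minus strand. They are printed from 5′ to 3′ along the gene, and capitals mark matches, which read GAAA, any 2 bases and GAAA on this strand.
Isg15: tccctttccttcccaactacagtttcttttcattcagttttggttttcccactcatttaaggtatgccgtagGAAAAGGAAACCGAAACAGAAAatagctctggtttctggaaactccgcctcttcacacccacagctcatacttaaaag
Bst2: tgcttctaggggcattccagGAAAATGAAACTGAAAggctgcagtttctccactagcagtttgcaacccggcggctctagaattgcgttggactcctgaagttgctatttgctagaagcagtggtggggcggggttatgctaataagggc
Phf11b: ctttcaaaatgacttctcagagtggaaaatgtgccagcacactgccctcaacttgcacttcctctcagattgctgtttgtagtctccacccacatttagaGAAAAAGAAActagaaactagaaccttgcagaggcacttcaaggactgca
Isg15 has 3 overlapping matches, the first beginning 78 bases before the start, Bst2 has 2 overlapping matches from 130 bases and Phf11b has 1 at 50 bases. Over 250 bases before the start and on both strands, the core was found in 9 of 19 list genes with a RefSeq entry and in 2.98% of 32851 promoters. A match describes these letters and is no evidence of binding.

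Heat shock chaperones, which refold proteins under stress, were lower in the Elf-1 KO members. Hspa1a had 31 UMIs in 5 of 14 Elf-1 KO members, 25 of them in 1 barcode, and 979 UMIs in 62 of 70 WT members. At 448 and 3063 CPM it was 6.83-fold lower (4.78 to 10.1). Hspa1b, its near-identical neighbour with which reads may be shared, had 14 and 392 UMIs, 6.06-fold lower (3.57 to 11.2). The 20 listed genes summed to 459 UMIs in Elf-1 KO members (6639 CPM) and 5037 in WT members (15757 CPM). Of 10 measured genes, 0 were past 2-fold higher and 6 lower, at a median log2 ratio of -1.31. Without mixed members 4 of 9 were lower. The measured genes met the UMI minimum mainly through the WT members, which favours lower ratios, so these counts are a description. All other barcodes differed about as much, at a median of -1.54 for the same genes and with Hspa1a 7.08-fold lower.

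Metallothioneins, zinc-binding proteins that respond to metals and glucocorticoids, were higher in the Elf-1 KO members. Mt1 had 364 UMIs in 14 of 14 Elf-1 KO members, 5265 CPM, and 283 UMIs in 50 of 70 WT members, 885 CPM, 5.95-fold higher (5.08 to 6.97). Mt2 had 75 UMIs in 9 Elf-1 KO and 16 UMIs in 7 WT members, 21.7-fold higher (12.5 to 39.8). Without mixed members Mt1 was 8.88-fold (7.39 to 10.7) and Mt2 31.6-fold higher (14.6 to 78.0). In T cells Mt1 was found in 90.9% of Elf-1 KO and 30.5% of WT barcodes, and over all other barcodes Mt1 and Mt2 were 11.4-fold and 10.8-fold higher in the Elf-1 KO library. How much of the members' Mt1 was free RNA was not tested. The list of metallothionein, ferritin and redox genes had 3 of 11 past 2-fold higher (Mt1, Mt2 and Fth1) and 1 lower (Txn1), against 5.44% and 11.8% of all genes. Its median log2 ratio was -0.07 and its summed ratio 1.83, which point opposite ways.

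A few genes were higher in Elf-1 KO members by folds well above those in the other barcodes, and 1 of them, Mkrn1, was not higher there. Mkrn1 (chr6:39397804-39420462, minus strand), a RING-type ubiquitin ligase gene, had 65 UMIs in 14 of 14 Elf-1 KO members, at most 16 in 1 barcode, and 62 UMIs in 33 of 70 WT members. At 940 and 194 CPM it was 4.85-fold higher (3.37 to 6.98), against a ratio of 0.895 in all other barcodes. Among unmixed members with neither lineage gene it had 37 UMIs in 7 of 7 Elf-1 KO and 18 UMIs in 8 of 16 WT barcodes. Marcksl1, an actin-regulating protein, had 30 UMIs in 9 Elf-1 KO and 30 UMIs in 17 WT members (4.62-fold higher, 2.69 to 7.94; 1.32 in other barcodes). Jak2, the kinase that signals from cytokine receptors, had 31 UMIs in 11 and 44 UMIs in 26 members (3.26-fold, 1.99 to 5.28; 1.16 in other barcodes). Tiparp, a target of the aryl hydrocarbon receptor, had 27 UMIs in 7 and 39 UMIs in 20 members (3.20-fold, 1.88 to 5.36; 1.22 in other barcodes). Without mixed members the ratios of Mkrn1, Marcksl1, Jak2 and Tiparp were 5.94, 5.48, 3.31 and 3.77. Scp2, a lipid transfer protein, ran the other way with 2 and 62 UMIs (6.70-fold lower, 1.78 to 56.6) and a ratio of 0.927 in other barcodes.

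Other named genes rested on single barcodes. Chgb, a secretory granule protein of endocrine cells, had 1061 of its 1062 Elf-1 KO UMIs in 1 barcode, and Igfbp5, Igfbp4, Tceal9 and Nupr1 had 85 of 92, 31 of 37, 20 of 22 and 25 of 26 in 1 barcode. Icam1, an adhesion molecule, had 30 and 35 UMIs and a ratio of 3.96, which was 1.81 without mixed members. Lypd8, a protein secreted by colonocytes, had 1 UMI in Elf-1 KO members and 75 in WT members, 43 of these in 1 barcode, beside the epithelial transcripts described above.

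Antigen presentation genes passed 2-fold about as often as all genes, of which 5.44% were higher and 11.8% lower. Of the MHC class II and loading list, 0 of 9 were past 2-fold higher and 1 lower (Ciita, the class II master regulator, with 6 and 58 UMIs), at a median of -0.43. The summed ratio was 0.790 (0.734 to 0.849) and 0.954 (0.883 to 1.03) without mixed members. In all other barcodes the same genes had a median of -2.16. Of class I genes 0 of 14 were past 2-fold higher and 1 lower, with a summed ratio of 0.832 (0.771 to 0.898). The promoters of H2-Aa and H2-Eb1, rule genes, are shown for the CCAAT-containing Y box of class II promoters, searched as TGATTGG on both strands. They are RefSeq sequences on GRCm38.p6, chr17:34287824-34287973 (minus strand) and chr17:34305717-34305866 (plus strand), with matches in capitals.
H2-Aa: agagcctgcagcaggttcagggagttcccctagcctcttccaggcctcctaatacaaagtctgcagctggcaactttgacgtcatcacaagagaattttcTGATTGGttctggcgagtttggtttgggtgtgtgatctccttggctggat
H2-Eb1: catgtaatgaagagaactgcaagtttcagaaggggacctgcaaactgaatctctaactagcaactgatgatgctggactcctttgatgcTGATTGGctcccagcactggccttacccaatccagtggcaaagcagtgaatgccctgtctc
The matches begin 50 and 61 bases before the start. Within 250 bases before the start the motif was found in 8 of 12 class II genes with an entry, rule genes included, and in 7.23% of all promoters.

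Single cytokine, chemokine and receptor genes differed in either direction and are given as a description. The count of chemokines past 2-fold, 1 of 5, was near the 17.3% over all genes. Il1b had 89 UMIs in Elf-1 KO and 616 in WT members, a ratio of 0.67. Of 5 measured chemokines 0 were past 2-fold higher and 1 lower, with Ccl3 at 85 and 241 UMIs, Ccl4 at 194 and 1139 and Cxcl2, which draws neutrophils, at 9 and 163. Cxcl2 was 3.92-fold lower in Elf-1 KO members and 3.18-fold higher in the other Elf-1 KO barcodes. The receptor subunits for granulocyte-macrophage colony-stimulating factor ran opposite ways, Csf2rb at 30 and 63 UMIs (ratio 2.20) and Csf2ra at 4 and 59 UMIs (ratio 0.31), while both had a ratio of 1.68 in other barcodes. Cd48, an adhesion and costimulatory ligand, had 7 and 96 UMIs, a ratio of 0.34. Cxcl2, Csf2ra and Cd48 met the UMI minimum mainly through the WT members, which favours lower ratios.

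Mitotic genes were found together in WT members, and the Elf-1 KO members were too few to compare. At least 3 of 8 mitotic genes were found in 0 of 14 Elf-1 KO members, an exact interval up to 23.2%, and in 6 of 70 WT members (8.57%, 3.21 to 17.7). Of those 6, 3 were among the 23 Xcr1 or Clec9a barcodes, 2 among the 27 Cd209a barcodes and 1 among the 20 with neither. All other kept barcodes had shares of 1.30% in the Elf-1 KO library and 5.86% in the WT library.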

How the data were processed

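The RNA of single cells was read in 1 Elf-1 KO and 1 WT library, each of 3 pooled mice. The authors deposited unnormalized UMI counts of each gene in each barcode. Reads were processed with cutadapt 1.17, STAR 2.6.1a and featureCounts 2.0.1 on GRCm38, per the submitters' processing notes. The files list 25467 and 26425 genes for 10012 and 8635 barcodes with 39750319 and 32481613 UMIs (Elf-1 KO and WT), and 0 columns belong to other series.

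Kept barcodes had 500 or more UMIs, 200 or more genes and a mitochondrial share of no more than 25%. UMIs were summed over members per library and scaled to CPM. Ratios of Elf-1 KO over WT carry exact conditional binomial intervals and shares exact Clopper-Pearson intervals, both at 95% and covering only counting error. A count of 0 was taken as 3. Called means past 2-fold among genes listed in both files with at least 50 UMIs over all members (20 between kinds of member and against other barcodes). No test was made, since each group is 1 library. The intervals were checked on simulated sums of independent UMIs, the setting that they assume. The simulation held no differences between barcodes, so it does not show how the intervals behave with such differences.

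The members and gene lists were chosen with earlier results of these data known. Named genes between libraries were the 12 highest and 12 lowest ratios with a UMI in 10% of the members of 1 library and an interval that excludes 1, without mitochondrial, ribosomal, haemoglobin, immunoglobulin, T cell receptor and sex-linked genes, gene models and other lineages' markers. Between kinds they were the 10 at each end in the WT library alone, a change made after the data were seen because the Elf-1 KO library has 2 and 1 such barcodes, and only some of them are printed. Against other barcodes they were among the 20 highest in both. Leaving out mixed members, leaving out the deepest Elf-1 KO member, the restricted monocytes and the rules without Xcr1 or without Cd209a were also chosen after seeing the data. Doublets were called with scrublet in scanpy 1.11.5. It marked 2.67% of Elf-1 KO barcodes and 0.0246% of WT barcodes, so the top 5% of scores were used for WT. Doublets were left out only as an alternative. Tools were python 3.11.15, numpy 2.4.6, scipy 1.17.1, pandas 2.3.3, matplotlib 3.10.9 and edgeR 4.0.16 (TMM factors only). Promoters are from RefSeq on GRCm38.p6.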

Additional observations from a re-analysis of the deposited data

How the results depend on the processing

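No paired analysis was possible because each group is 1 library and nothing pairs the libraries. The ratio of the shares of conventional dendritic cells, Elf-1 KO over WT, was 0.0745 with every barcode thinned to 1000 UMIs (3 and 33 members), against 0.167, and 0.0954 to 0.233 under the other alternatives. The 200 genes past 2-fold became 22 with members thinned to 1000 UMIs, 111 with at least 4 of the 8 genes, 106 in Cd209a barcodes alone, 751 with a minimum of 20 UMIs per gene, 57 with 100 and 1943 with 1. With TMM factors 255 genes were past 2-fold and with median-of-ratios factors 234. The ratio of Elf1 was 0.81 to 1.54 and that of the Xcr1 or Clec9a shares 0.435 to 0.909, with every interval spanning 1. In Cd209a barcodes alone, a single Elf-1 KO barcode, the log2 ratios turned positive for Hspa1a (1.00), Hspa1b (0.64), Apbb1ip (1.14) and the heat shock list (0.25). Tceal9 turned to -0.46 and Nupr1 to -0.44 without mixed members, and to -1.29 and -2.64 without the deepest Elf-1 KO member, where 1 mixed barcode holds most of their UMIs. Of 217 alternative values of named genes 166 moved by less than their interval, 44 moved further and 7 reversed, and of 299 values of lists 180, 118 and 1. Leaving out members with 2 UMIs of any other lineage list was not run, since 0 Elf-1 KO and 12 WT members remain, nor was a minimum of 2 UMIs of Xcr1 and Clec9a (0 and 13 barcodes).

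With 14 Elf-1 KO members, 1 UMI is 14.5 CPM, and a gene at 0 in a single barcode is only not detected at its depth.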

Other observations

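A list of 12 retinoid, TGF-beta activation and gut integrin genes summed to 39 UMIs in Elf-1 KO members (564 CPM) and 242 in WT members (757 CPM), most of them from integrins. Itgb7, which pairs with Itgae and Itga4 in gut homing and retention, had 11 UMIs in 4 Elf-1 KO and 99 UMIs in 44 WT members, and Itgb2 10 and 70 UMIs. Aldh1a2, the enzyme with which intestinal dendritic cells make retinoic acid, had 0 UMIs in Elf-1 KO members and 1 in WT members, and Itgb8, part of an integrin that activates TGF-beta, had 0 in both. The T cell attracting chemokine genes were sparse, with Ccl17 at 11 UMIs in 3 Elf-1 KO members and 18 UMIs in 4 WT members, and Ccl22, a rule gene, at 0 and at 18 UMIs in 5 members. Costimulatory genes were detected in both libraries, Cd86 in 7 of 14 Elf-1 KO and 28 of 70 WT members (14 and 42 UMIs), Cd40 in 2 and 13, and Cd274, the gene of PD-L1, in 6 and 14. Il10 had 0 and 4 UMIs and Il12b 4 UMIs in 1 Elf-1 KO member, a mixed barcode, and 1 in 1 WT member.

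Klrd1, a receptor gene better known from natural killer cells, was detected in 9 of 14 Elf-1 KO and 26 of 70 WT members, with 27 UMIs or 391 CPM and 51 UMIs or 160 CPM. It was looked up after its values were seen.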
